A study of Mus musculus with 2 samples.

Results

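Guanylin and uroguanylin are small peptide hormones of the intestinal lining, encoded by Guca2a and Guca2b, which are secreted into the gut lumen. They bind guanylate cyclase C, encoded by Gucy2c, a receptor in the apical membrane of intestinal epithelial cells that makes cyclic GMP and that the heat-stable enterotoxin of Escherichia coli also activates. Cyclic GMP then acts through the membrane-bound kinase encoded by Prkg2 on the chloride channel CFTR and on the sodium-proton exchanger NHE3, and so on the flow of salt, water and bicarbonate into the lumen. These 4 genes were taken by symbol from 43346 gene rows measured in the mouse duodenum, and each matched 1 row.

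The data come from 2 libraries of polyadenylated RNA from the duodenum of adult C57BL/6J mice aged 8 weeks, which the labels number as biological replicates 2 and 1. Tissue of male and female littermates was pooled, and both libraries carry the same donor entry under different biosample entries, so the labels do not say which animals went into which library. They form 1 group, so the data show the level of each gene and how far the libraries differ, and a ratio between the libraries has no replicate check. The labels call the replicates biological, but how much of the spread between the libraries is technical was not tested. Replicate 2 held 45438504 expected counts and replicate 1 held 44977004, with spike-ins included. A ratio here is replicate 2 over replicate 1 of counts scaled by TMM, a method that sets most genes to be equal on balance, and a gene was called where it differed by 2-fold or more. The intervals of ratios were derived from exact 95% Clopper-Pearson limits of the share of counts that came from replicate 2, and they cover counting error only.

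The tissue label was checked against marker genes. All 10 enterocyte, 8 goblet cell, 7 Paneth cell and 8 enteroendocrine markers were detected in both libraries, while the tuft cell marker Rgs13 had 0 counts in both and Il25 had 28 counts in replicate 2 against 0 in replicate 1. The 12 markers of exocrine pancreas summed to 133 TPM (transcript abundance corrected for length and scaled to the same sum in each library) in replicate 2 and 73470 TPM in replicate 1. The 9 markers of stomach and Brunner's gland summed to 89.9 TPM in replicate 2 against 24911 TPM in replicate 1. All 12 and all 9 of these genes were called lower in replicate 2, and Amy2b, a pancreatic amylase gene, had 0 counts there.

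Guca2b, the uroguanylin gene, was the most abundant of the 4 genes in each library, followed by Guca2a, Gucy2c and Prkg2. Guca2b lay at 2429 TPM in replicate 2 against 272 TPM in replicate 1, and averaged 1351 ± 1525 TPM (SD, n = 2, as for the other means). Guca2a lay at 840 TPM in replicate 2 against 89.8 TPM in replicate 1, with a mean of 465 ± 531 TPM. Both peptide genes were thus far higher in replicate 2, and their SDs exceeded their means. In bulk tissue fewer cells of a type and less RNA per cell cannot be told apart. By rank among all gene rows, Guca2b was number 54 in replicate 2 and number 453 in replicate 1, and Guca2a number 174 and number 1380 in the same libraries. Gucy2c lay at 55.1 TPM in replicate 2 against 34.1 TPM in replicate 1, with a mean of 44.6 ± 14.9 TPM. Prkg2 was low, at 3.84 TPM in replicate 2 against 1.96 TPM in replicate 1, with a mean of 2.90 ± 1.33 TPM.

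Within each library the bounds that the authors' quantifier gave for the 4 levels did not overlap. For Guca2b these bounds ran from 2383 to 2431 TPM in replicate 2 and from 262 to 278 TPM in replicate 1. For Guca2a they ran from 819 to 848 TPM in replicate 2 and from 84.6 to 93.6 TPM in replicate 1. Across libraries the levels of the peptide genes did overlap, since Guca2a in replicate 2 lay above Guca2b in replicate 1. The difference between those neighbours in the order was therefore not larger than the spread between libraries. That spread was shared by both genes, however. Within each library Guca2a stood below Guca2b by a like factor, at 0.346 of its TPM in replicate 2 and 0.330 in replicate 1. Both levels of Guca2a lay above both levels of Gucy2c, and both levels of Gucy2c above both of Prkg2.

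**Figure D1:**
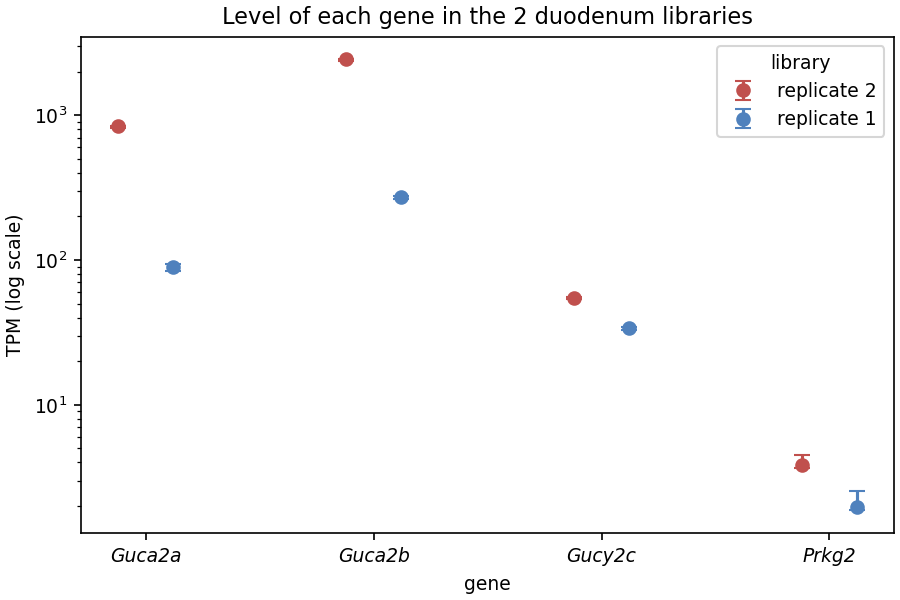
Level of each gene in TPM (log axis) in replicate 2 (left, red) and replicate 1 (right, blue), with the authors' bounds as bars. Guca2b and Guca2a lie far apart between the libraries (2429 and 272 TPM, 840 and 89.8 TPM), Gucy2c and Prkg2 less so.

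The peptide genes are neighbours on chromosome 4 and point towards each other. In mm10 with GENCODE M21, Guca2a (ENSMUSG00000023247.2) spans 119637704 to 119639471 on the plus strand, and Guca2b (ENSMUSG00000032978.10 in the files) spans 119656607 to 119658954 on the minus strand. Their ends are 17135 bases apart, and each has 3 exons in its main transcript. Both encode a longer precursor, of 116 codons for Guca2a and 106 for Guca2b, whose last 15 codons make the active peptide. Those codons are shown because they hold what the receptor binds. The sequences are those of the GENCODE M21 transcripts, read 5′ to 3′, with the cysteine codons in capitals. They lie in the last exon, at chr4:119639228-119639272 (plus strand) for Guca2a and chr4:119656795-119656839 (minus strand) for Guca2b.
Guca2a: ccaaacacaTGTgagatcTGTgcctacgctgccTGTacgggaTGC
Guca2b: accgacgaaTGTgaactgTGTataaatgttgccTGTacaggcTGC
Of the 45 bases 29 are identical, and all 4 cysteine codons stand at the same places in both. The cysteines pair in disulphide bridges that hold each peptide in its active shape.

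Guca2a had 12678 counts in replicate 2 against 1490 in replicate 1, a ratio of 9.93 (95% interval 9.41 to 10.5). Guca2b had 37738 counts in replicate 2 against 4650 in replicate 1, a ratio of 9.47 (95% interval 9.18 to 9.76). The peptide genes were called higher in replicate 2 by nearly the same factor. Of the 15921 genes compared (a mean count of at least 10), 11.8% were called higher in replicate 2 and 15.0% lower, which is 1880 and 2387 genes. With total gene counts in place of TMM these numbers were 1307 and 3240.

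The proportion between the peptide genes was close in both libraries, which needs no scaling between them. Guca2a stood at 0.346 of the Guca2b level in replicate 2 and at 0.330 in replicate 1, on the TPM scale. In counts that proportion was 1.05 times as high in replicate 2 (95% interval 0.986 to 1.12, from the counting error of the logarithm), an interval that includes 1.

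Gucy2c (ENSMUSG00000042638.10, chromosome 6, 136697284 to 136781765, minus strand) had 8036 counts in replicate 2 against 5159 in replicate 1. Its ratio of 1.82 (95% interval 1.75 to 1.88) did not reach the 2-fold limit. Prkg2 (ENSMUSG00000029334.10, chromosome 5, 98929773 to 99037351, minus strand) had 724 counts in replicate 2 against 384 in replicate 1. Its ratio of 2.20 passed the limit, but the 95% interval of 1.94 to 2.50 includes it, and the call ended with total gene counts (1.87), spike-in counts (1.86) or TPM (1.96). In all, 3 of the 4 genes were called higher in replicate 2 and 0 lower, or 2 of the 4 higher where Prkg2 lost its call. Of all genes compared, 11.8% were called higher and 15.0% lower with TMM. Called higher with total gene counts, spike-in counts or TPM were 8.21%, 8.17% and 10.1% of them.

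Per length, the peptide genes stood higher over their receptor in replicate 2. Guca2b was at 44.1 times the TPM of Gucy2c in replicate 2 and at 7.99 times in replicate 1. Guca2a was at 15.3 times the TPM of Gucy2c in replicate 2 and at 2.63 times in replicate 1. In counts, Guca2b over Gucy2c was 5.21 times as high in replicate 2 (95% interval 4.97 to 5.46), and Guca2a over Gucy2c was 5.46 times as high (95% interval 5.12 to 5.82). For Prkg2 over Gucy2c the same comparison gave 1.21 (95% interval 1.06 to 1.38).

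**Figure D2:**
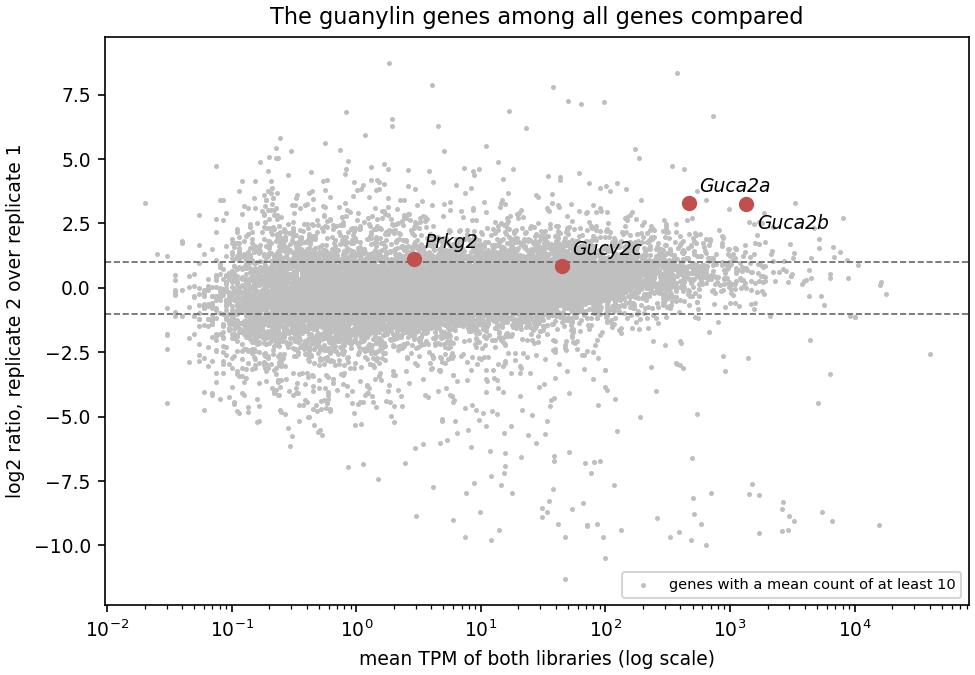
Log2 ratio, replicate 2 over replicate 1, against the mean TPM (log axis) for the genes compared (grey), with the 4 genes in red and dashed lines at 2-fold. Guca2a and Guca2b lie near the upper edge for genes of their level, while Gucy2c lies just under the upper line and Prkg2 just over it. Set against Vil1, a base that the figure does not use, Gucy2c (0.542) and Prkg2 (0.657) were lower in replicate 2. That base put 82.8% of the genes compared lower by 2-fold or more.

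Marker genes of the cells that line the gut moved with the peptide genes in part. Among all genes compared, 11.8% were called higher in replicate 2 and 15.0% lower. Of 10 enterocyte markers 7 were called higher in replicate 2 and 1 lower, with sums of 27804 TPM in replicate 2 against 13040 TPM in replicate 1. The lower one was Alpi, at 1568 TPM in replicate 2 against 7153 TPM in replicate 1. Alpi held most of the replicate 1 sum, and Apoa1 and Apoa4 most of that of replicate 2. Of 8 goblet cell markers 5 were called higher and 2 lower, with sums of 25064 TPM in replicate 2 against 10212 TPM in replicate 1. Of 7 Paneth cell markers 5 were called higher and 1 lower, with sums of 7968 TPM in replicate 2 against 2628 TPM in replicate 1. Enteroendocrine cells had 1 of 8 markers called higher and 1 lower, with sums of 1302 TPM in replicate 2 against 692 TPM in replicate 1. Sct and Cck held most of that sum, and the median ratio of the 8 was 0.874. Tuft cells had 1 of 6 tested markers higher and 2 lower, with sums of 27.3 TPM in replicate 2 against 52.2 TPM in replicate 1. The part of these cell types in the ratios was not tested, nor that of the pancreas, stomach and Brunner's gland RNA given above. Set against Vil1, a brush border protein of intestinal epithelium chosen as a base after its values were seen, the ratio was 2.96 for Guca2a and 2.83 for Guca2b, and 0.542 for Gucy2c and 0.657 for Prkg2. Against Epcam, an adhesion protein of epithelia likewise chosen, it was 5.56 for Guca2a, 5.30 for Guca2b, 1.02 for Gucy2c and 1.23 for Prkg2. With Vil1 as the base 82.8% of the genes compared were lower in replicate 2 by 2-fold or more, and with Epcam 44.1%. With the pancreas, stomach and Brunner's gland markers left out of the scaling, the ratios were 9.92 for Guca2a and 9.46 for Guca2b.

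By level in both libraries, the protein-coding genes nearest to Guca2a were Amn, Selenop and Pepd, out of 21474. Nearness was the distance between pairs of log2(TPM + 1) values, which rests on only 2 libraries. Amn, part of the vitamin B12 receptor, lay at 1000.3 TPM in replicate 2 against 82.4 TPM in replicate 1, a distance of 0.28. Nearest to Guca2b were Hist1h2ap, Hba-a2 and Cldn7, at distances of 0.58 to 0.86, and the first 2 belong to families of near-identical copies whose reads cannot be split with certainty. Nearest to Gucy2c were Crls1, Ovol2 and Golt1a, and nearest to Prkg2 were Edrf1, Rgs9 and Sp140, all within 0.05.

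Of 67 other genes of the pathway, grouped in 5 lists, 66 matched a row and 51 had enough counts to compare. Of these 9 were called higher in replicate 2 (17.6%), 9 lower (17.6%) and 33 were not called, against 11.8% and 15.0% of all genes compared. Their median ratio was 1.05, and that of all genes compared was 0.970. Pde2a matched no row by symbol and is not analysed here.

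Other guanylate cyclases lay well below Gucy2c. The receptor of atrial natriuretic peptide, Npr1, was at 3.78 TPM in replicate 2 against 4.72 TPM in replicate 1. Npr2, the receptor of the C-type peptide, lay at 4.26 TPM in replicate 2 against 9.81 TPM in replicate 1. Neither was called, with count ratios of 1.01 and 0.571, though the TPM of Npr2 differed by more than 2-fold. The subunits of the nitric oxide receptor Gucy1a1 and Gucy1b1 were 2.86-fold and 2.26-fold lower in replicate 2, with Gucy1a1 at 1.09 TPM in replicate 2 against 4.26 TPM in replicate 1. Gucy1a2 passed the 2-fold limit at 20 counts in replicate 2 against 11 in replicate 1, but the interval of its ratio, 0.969 to 4.90, includes 1. The retinal cyclases Gucy2e and Gucy2f had 0 counts in both libraries.

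Among the genes that read or remove cyclic GMP, the phosphodiesterase gene Pde9a was highest. It lay at 222 TPM in replicate 2 against 106 TPM in replicate 1, above Gucy2c in both, with a count ratio of 1.53 that was not called. Pde5a (1.71 TPM in replicate 2, 2.63 TPM in replicate 1), Pde3a and Pde3b, a pair of enzymes that cyclic GMP inhibits, were low and not called. The soluble cyclic GMP kinase gene Prkg1 was near its lower limit, at 6 counts in replicate 2 against 20 in replicate 1, and so below Prkg2 in both libraries, with 0.09 TPM in replicate 2 against 0.18 TPM in replicate 1. It was called lower in replicate 2, as were Pde1c and Pde11a, at 18 and 7 counts in replicate 2 and 77 and 30 counts in replicate 1. Cnga4, a channel subunit known from olfactory neurons, had 22 counts in replicate 2 against 3 in replicate 1, which gave a ratio of 8.56 (95% interval 2.57 to 44.6). The cyclic nucleotide exporters Abcc4 and Abcc5 were not called.

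Of 17 genes of ion transport and its scaffolds, 4 were called higher in replicate 2, 3 lower and 10 were not called, with a median ratio of 1.14. That is 23.5% higher and 17.6% lower, against 11.8% and 15.0% of all genes compared. Cftr, the chloride and bicarbonate channel, lay at 0.91 TPM in replicate 2 against 5.13 TPM in replicate 1, and was 4.99-fold lower in replicate 2 (95% interval 4.32 to 5.78). Slc9a3, which encodes NHE3, lay at 35.4 TPM in replicate 2 against 61.6 TPM in replicate 1, with a count ratio of 0.643 that was not called. The chloride-bicarbonate exchanger Slc26a3 and the basolateral chloride importer Slc12a2 were 2.06-fold and 2.24-fold lower in replicate 2. The exchanger Slc26a6 was the most abundant gene of the list, at 1317 TPM in replicate 2 against 1135 TPM in replicate 1, with a count ratio of 1.25. The exchanger Slc9a2 (NHE2) lay at 106 TPM in replicate 2 against 69.6 TPM in replicate 1, with a count ratio of 1.64, and the bicarbonate transporter Slc4a4 had a ratio of 0.543. None of these 3 was called.

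Other genes of this list encode brush border scaffolds and kinase subunits, and the 4 of its 17 genes called higher were among them. That is 23.5%, against 11.8% of all genes compared. Slc9a3r1 (NHERF1), which anchors NHE3 and CFTR at the brush border, lay at 781 TPM in replicate 2 against 230.1 TPM in replicate 1, a count ratio of 3.78. Pdzk1, a related scaffold, had a ratio of 5.04 and lay at 35.0 TPM in replicate 2 against 7.76 TPM in replicate 1. Pdzd3, whose human protein binds guanylate cyclase C and lowers its activity, lay at 22.7 TPM in replicate 2 against 9.71 TPM in replicate 1, a ratio of 2.61. Vil1, which is also an enterocyte marker above, had a ratio of 3.35. Slc9a3r2 (NHERF2), which ties the Prkg2 kinase to NHE3, had a ratio of 1.14 and was not called. Nor were Ezr, which links membrane proteins to actin (1.76), the anchoring protein gene Akap9 (0.751), and the protein kinase A genes Prkaca (1.37), Prkar2a (1.01) and Prkar2b (0.667). The TPM of Akap9 differed more than its counts, at 1.68 TPM in replicate 2 against 6.48 TPM in replicate 1.

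Related hormones were scarce. Nppb and Corin, a protease that activates atrial natriuretic peptide, had 0 counts in both libraries, and Nppa had 2 counts in replicate 2 against 0 in replicate 1. Npr3, the clearance receptor of those peptides, had 82 counts in replicate 2 against 12 in replicate 1, which gave a ratio of 7.97 (95% interval 4.33 to 16.1). Of 13 transcription factors of the gut lining, Cdx1 and Cdx2 were called higher in replicate 2 and Spdef, a factor of goblet cells, was 2.70-fold lower. That is 15.4% higher and 7.69% lower, against 11.8% and 15.0% of all genes compared. Hnf4a and Gata4 had ratios of 1.05 and 0.923, and Gata6 had a ratio of 1.77. Set against Vil1, the called genes Pdzk1, Slc9a3r1 and Npr3 were still higher in replicate 2, whereas Pdzd3, Cdx1 and Cdx2 were lower. Of these genes only Npr3 passed the 2-fold limit on that base, which put 82.8% of the genes compared lower by 2-fold or more. Cnga4 was higher and Gucy1a2 lower on that base, but the intervals of both ratios include the Vil1 ratio of 3.35.

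**Figure D3:**
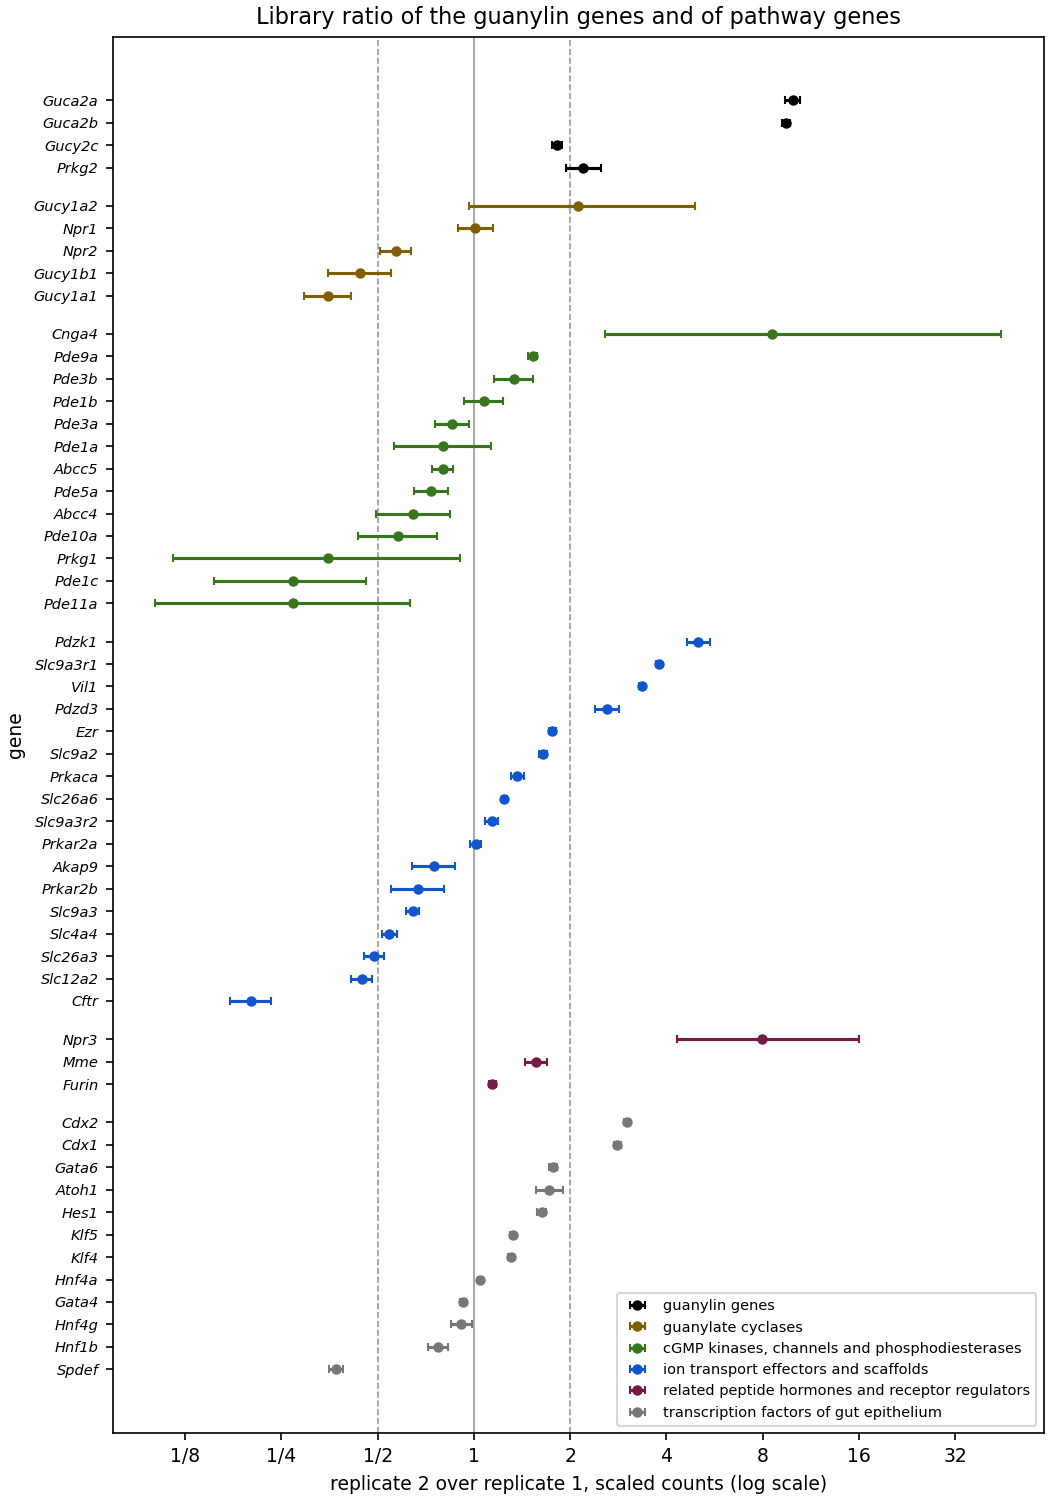
Ratio of scaled counts, replicate 2 over replicate 1 (log axis), with exact 95% intervals as bars, for the 4 genes and for pathway genes, by list. Solid and dashed lines mark no difference and 2-fold. Guca2a (9.93) and Guca2b (9.47) lie right of the other genes, while Cftr is the lowest of the ion transport list.

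The stretches before the starts of the peptide genes are shown because these genes differed between the libraries by like factors. The part of these stretches in that difference was not tested. They come from RefSeq promoters on GRCm38.p6, up to the base before the GENCODE start, and 2 of the 4 genes had one. They are read 5′ to 3′ on the strand of the gene, chr4:119637482-119637703 (plus) for Guca2a and chr4:119658955-119659195 (minus) for Guca2b. Capitals mark the motif GATAAG, which reads CTTATC on the opposite strand and is a core of the sites of GATA factors.
Guca2a: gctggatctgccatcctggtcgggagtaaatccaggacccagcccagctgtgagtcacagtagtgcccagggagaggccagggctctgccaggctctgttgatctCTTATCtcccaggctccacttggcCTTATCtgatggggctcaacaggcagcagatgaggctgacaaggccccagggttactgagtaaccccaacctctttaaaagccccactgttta
Guca2b: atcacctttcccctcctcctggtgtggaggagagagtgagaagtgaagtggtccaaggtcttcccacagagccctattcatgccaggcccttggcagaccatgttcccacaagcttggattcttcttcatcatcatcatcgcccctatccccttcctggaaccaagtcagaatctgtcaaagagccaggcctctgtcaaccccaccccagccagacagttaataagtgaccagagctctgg
Guca2a held GATAAG at 2 places, 117 and 93 bases before the start, and the window of Guca2b held none. On either strand GATAAG stood in 7.44% of 32851 promoters of 300 bases, and no other of the searched motifs overlapped these. Also searched on both strands were TTTATG for CDX factors (11.9% of promoters), CAAAGT for HNF4 (14.4%) and TATAA for a TATA box (24.9%). TTTATG and CAAAGT were in neither window, and TATAA was only in that of Guca2b, 9 bases past the start. A match is a description of letters, not a site.

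Annotated transcripts differed in how clearly they were resolved. Guca2a has 1 transcript. For Guca2b, the transcript ENSMUST00000044426.7 made up 99.7% of the TPM of the gene in replicate 2 and 99.1% in replicate 1, and the other, with another first exon, made up 0.33% and 0.90% in the same libraries. Prkg2 was assigned wholly to ENSMUST00000161490.3, a transcript of 19 exons, in both libraries, or 93.2% in replicate 2 and 87.4% in replicate 1 by posterior mean TPM. The other transcript of 19 exons, ENSMUST00000031277.6, was given 0 TPM in both, or 1.52% in replicate 2 and 4.79% in replicate 1 by posterior mean TPM.

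For Gucy2c the transcript of 26 exons, ENSMUST00000078095.8, made up 67.5% of the TPM of the gene in replicate 2 and 73.6% in replicate 1. The transcript of 27 exons, ENSMUST00000032338.7, made up the other 32.5% in replicate 2 and 26.4% in replicate 1. The bounds for the shorter one ran from 31.5 to 40.5 TPM in replicate 2 and from 22.2 to 27.1 TPM in replicate 1. Between exons common to both, the transcripts differ by exon 14 of the longer one, 72 bases long and so 24 codons, which keep the reading frame. It lies at chr6:136728331-136728402 (mm10, minus strand) and is shown because it sets the transcripts apart. In GENCODE M21 the transcripts, 3959 and 3863 bases long, also differ at their ends.
Gucy2c exon 14: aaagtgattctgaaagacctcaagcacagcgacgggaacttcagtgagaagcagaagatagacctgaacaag

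The deposited list of splice junctions gave another view of these transcripts. It sums both libraries and is in mm9, so junctions were matched by the lengths of introns and of the exons between them, with no conversion of positions. All 2 annotated introns of Guca2a and all 3 of Guca2b were found in 1 such chain, with 26 of 27 for Gucy2c and 15 of 20 for Prkg2, and the next best placement held 1 intron of each gene. Junction reads for Guca2a were 436 at intron 1 and 2260 at intron 2. For the main transcript of Guca2b they were 4149 at intron 1 and 16751 at intron 2, and the other first exon had 5. The intron of Gucy2c not listed was the one that joins exon 13 to exon 15 in the shorter transcript. The junctions on either side of exon 14 were listed with 11 and 43 reads. The list therefore held reads for including exon 14 and listed none for skipping it, while the quantifier gave the larger share to the transcript without it.

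Reads were spread unevenly over the 26 junctions of the longer Gucy2c transcript. They ranged from 5 to 2241 with a median of 81, and introns 22, 23 and 24, with 2241, 1171 and 1618 reads, held 71.8% of all 7007. The neighbours on either side, introns 21 and 25, had 336 and 77 reads, and intron 19 had the fewest. Introns 1 to 20 each had 148 reads or fewer. Across the 26 junctions the reads had a Spearman correlation of 0.58 with the GC content of the 100 exon bases around each junction, which ran from 38.0% to 61.0%, and of −0.18 with the distance to the 3′ end. Both are descriptions over junctions of 1 transcript that share the same libraries, and the part of GC content was not tested. For Prkg2 intron 1 had 311 of 404 reads, at a GC content of 63.0%, and the other 17 had 20 or fewer. Across its 18 junctions the Spearman correlation of the reads was 0.20 with GC content and 0.41 with the distance to the 3′ end. These too are descriptions only. Junctions in the span of these genes that matched no annotated intron held 0.443% of junction reads for Guca2a, 0.395% for Guca2b, 0.313% for Gucy2c and 6.26% for Prkg2.

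**Figure D4:**
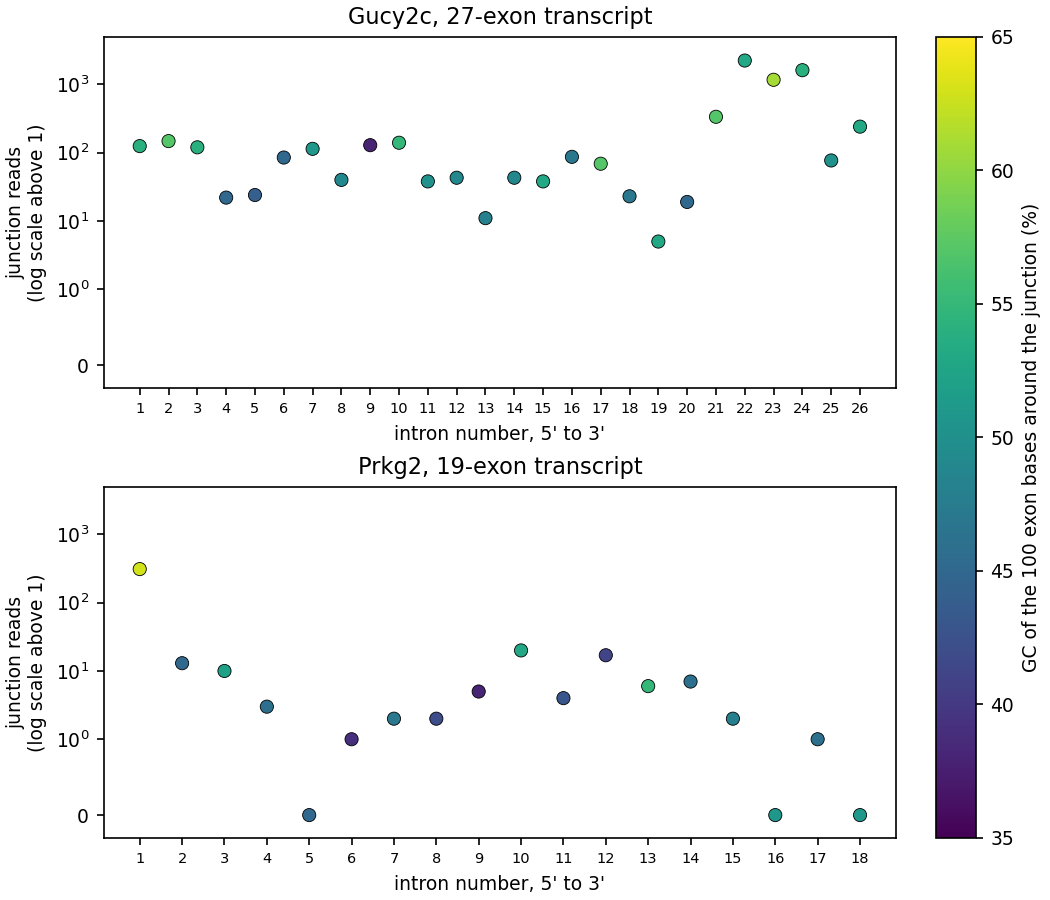
Reads across each junction, both libraries summed (log axis above 1), along the longer Gucy2c transcript (top) and the main Prkg2 transcript (bottom), coloured by the GC content of the 100 exon bases around the junction. Introns 22 to 24 of Gucy2c and intron 1 of Prkg2 stand above the others.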

How the data were processed

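Both duodenum libraries had a gene and a transcript table, quantified by the authors on mm10 with GENCODE M4, per the text files deposited beside them. An aligner and a quantifier were not given in the sources used here. Expected counts, as deposited, are estimated fragments per gene or transcript, not normalised. The deposited TPM and FPKM values were scaled by the authors for length and depth, per the file headers, and the deposited isoform percent is a transcript's share of its gene's TPM. The deposited junction counts are whole reads, both libraries summed, per the file's entries. Its scores and the contig list were not used.

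After rounding, TMM factors were taken from edgeR 4.0.16 under R 4.3.3, and genes averaging at least 10 counts were compared. With 1 library a side, edgeR's test could not be run, so a call means 2-fold or more, and no p-value is printed. Symbols came from GENCODE M21 and were found for 42462 of 43346 gene rows. Alternatives used DESeq2 1.42.0, other scalings, filters and limits. Computations used Python 3.11.15 with scipy 1.17.1. The genes and lists were chosen with earlier results of these data known. The text names all 4 genes, the called pathway genes, detected ones by role, and the 3 nearest genes each, and 1 listed gene, kept in the counts, is not reported here.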

Additional observations from a re-analysis of the deposited data

How the results depend on the processing

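Guca2a and Guca2b kept their direction and stayed past the limit under every scaling and filter tried, at 2.96 to 10.2 for Guca2a and 2.83 to 9.71 for Guca2b, the lowest with Vil1 as the base. Prkg2 was under the 2-fold limit with total gene counts (1.87), spike-in counts (1.86), the ratio of TPM (1.96) and Epcam (1.23). Gucy2c was at 1.02 with Epcam. Gucy2c (0.542) and Prkg2 (0.657) reversed when set against Vil1, as they differed less between the libraries than Vil1 did. On that base 82.8% of the genes compared were lower in replicate 2 by 2-fold or more, and the median log2 ratio was −1.78. With Epcam these values were 44.1% and −0.87. The bases Vil1 and Epcam were chosen after seeing the data. Members called higher were 2 of 4 with these 5 bases and at a 3-fold limit, and 4 at 1.5-fold. With these bases 1.54% (Vil1) to 10.1% (TPM) of all genes compared were called higher. Pathway genes called numbered 16 higher and 14 lower at a 1.5-fold limit, and 6 higher and 3 lower at 3-fold. Of all genes compared, 22.4% were called higher and 25.7% lower at 1.5-fold, and 5.22% and 7.59% at 3-fold. With total gene counts the median log2 ratio of all genes was −0.27, against −0.04 with TMM, and 1307 genes were called higher and 3240 lower, against 1880 and 2387. With spike-in counts and TPM the median was −0.28 and −0.19. With total gene counts, spike-in counts or TPM, 12 pathway genes were called lower, against 9 with TMM. Called higher were 8, 8 and 10 of them, against 9. Of all genes compared, 20.4%, 20.5% and 19.9% were then called lower, and 8.21%, 8.17% and 10.1% higher. Guca2b over Gucy2c changed by 5.52 times on the TPM scale. The share of the main Prkg2 transcript was 90.3% by posterior mean TPM. Leaving out a replicate gave levels of 89.8 to 840 TPM for Guca2a, 272 to 2429 for Guca2b, 34.1 to 55.1 for Gucy2c and 1.96 to 3.84 for Prkg2. The causes were not tested. No paired analysis was possible because there is 1 group. The 5 counts of intron 19 of Gucy2c show how thin the junction depth is there.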
